A study of Mus musculus with 18 samples.

Results

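The genes of the NRF2 and glutathione system were described in mouse Eml4-Alk lung cancer cells, in culture and after growth as tumors in the lung. The 39 genes were chosen by name as the transcription factor NRF2 (Nfe2l2), its inhibitor Keap1, enzymes that NRF2 is known to induce, and the wider sets of glutathione, thioredoxin, peroxide and NADPH enzymes. All 39 were listed in the expression tables of both cell lines, among 24269 genes that the tables shared. They are picked out by name, with no threshold on a measured value.

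NRF2 is a leucine zipper factor that KEAP1 binds in the cytoplasm and hands to a cullin ubiquitin ligase for destruction. Oxidants and electrophiles modify cysteines of KEAP1, after which NRF2 accumulates, pairs with a small MAF protein and binds antioxidant response elements near its target genes. Those genes encode enzymes that make and recycle glutathione, reduce peroxides and quinones, conjugate and export electrophiles, and supply NADPH. Mutations that activate the pathway occur in human lung cancer, and lung epithelium meets inhaled oxidants throughout life. Since KEAP1 acts on the NRF2 protein, the RNA level of Nfe2l2 does not report how active the factor is.

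EA1 and EA2 are mouse lung cancer lines that both carry the Eml4-Alk fusion. EA1 has intact p53 and EA2 lacks p53, according to the methods of the study. Of the 18 libraries, EA1 gave 5 in vitro and 5 in vivo and EA2 gave 3 in vitro and 5 in vivo. In vitro cells were kept in RPMI-1640 with fetal bovine serum and passaged while the tumors grew. For the in vivo libraries, cells were placed in the left lung of adult male C57BL/6 mice carrying a GFP transgene, tumors grew for 4 weeks, and GFP-negative cells were sorted from pools of 3 to 5 mice. Any host cell without GFP would pass this gate. By the methods of the study, only the in vivo cells went through enzyme digestion, red cell lysis and sorting. Culture cells were pelleted from a dish. Growth as a tumor and this handling cannot be told apart in any in vivo against in vitro change. Each library of a group is described in the series record as an independent replicate. Because nothing says that the in vitro libraries came from separate cultures, p-values measure only the spread between these libraries. Values are FPKM, fragments scaled to transcript length and to how many fragments of that library mapped, which the authors estimated with Cufflinks. The files hold no fragment counts, so depth and counting error are unknown here. Levels were compared only within the table of a line, and every change is in vivo minus in vitro on the scale log2(FPKM + 1), which understates the change of genes near or below 1 FPKM. Differences were called with limma (two-sided) at a Benjamini-Hochberg adjusted p under 0.05 over all genes tested in the line. Means are given ± SD over the libraries of the group.

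The labels held in part when checked against marker genes. Krt18, an epithelial keratin, was at 279.8 FPKM or more and Alk at 5.64 FPKM or more in every library. Epcam, an epithelial adhesion gene, reached no more than 2.04 FPKM in any EA2 library. In EA1 it was also low in vitro, at 1.52 to 2.27 FPKM, but stood at 35.5 to 150.4 FPKM in vivo. The keratin Krt8 was at 492.7 FPKM or more in every EA1 library. In EA2 it was at 22.5 to 93.3 FPKM in vitro and 0.583 to 69.7 in vivo. The part of host cells in the EA1 rise of Epcam was not tested. RNA of genes listed as markers of host cell types was also present in vivo. Whether host cells or the cancer cells made it was not tested. In EA1 the summed level of 8 fibroblast markers was 4.17 to 6.79 FPKM in vitro and 165.0 to 2705 in vivo, and that of 6 club and ciliated cell markers was 0.752 to 1.41 in vitro and 253.4 to 962.6 in vivo. In EA2 these sums in vivo were 346.4 to 810.1 and 16.2 to 172.0 FPKM. Most of the EA2 fibroblast sum was Dcn alone, at 305.9 to 769.3 FPKM. Without Dcn the other 7 markers summed in vivo to 4.66 to 167.5 FPKM in EA2 and to 135.8 to 2241 FPKM in EA1, and Lum and Tcf21 averaged 0.0435 and 0.0374 FPKM in EA2. Of the club and ciliated list in EA1 in vivo, Scgb1a1 alone stood at 231.7 to 887.1 FPKM and Foxj1 averaged 0.528 FPKM. Ptprc, the leukocyte marker CD45, averaged 0.536 FPKM in EA1 and 0.217 FPKM in EA2 in vivo. It is on a list of 12 macrophage and monocyte markers. Their sum in EA1 was 52.1 to 67.5 FPKM in vitro and 148.6 to 353.3 in vivo. In EA2 it was 49.5 to 71.5 and 37.9 to 171.3. Lyz2 of this list averaged 100.7 FPKM in EA1 and 38.4 in EA2 in vivo, while Mrc1 fell in both lines. In EA1, alveolar type 2 markers summed to 4.5 to 6.6 FPKM in vitro and 49.6 to 233.1 in vivo. Endothelial markers summed there to 0.111 to 0.185 and 18.7 to 51.99. Alveolar type 1 markers did not rise as a sum in EA1, at 305.0 to 389.8 FPKM in vitro and 303.1 to 373.9 in vivo. Neutrophil, lymphocyte and red cell markers summed in EA1 in vivo to at most 22.2, 2.12 and 1.25 FPKM. In a bulk library, fewer cells of a type and less RNA per cell cannot be told apart. Summed FPKM per library came to 500086 to 569388 in EA1 and to 475434 to 484492 in EA2 in vivo, but to 733184, 518260 and 717905 in EA2 in vitro libraries 1, 2 and 3. EA2 in vitro libraries 1 and 3 therefore stood apart from library 2, and EA1 in vivo library 4 stood apart by its fibroblast markers. For genes called in EA2, the value with culture library 2 alone is also given where it moved by over 1.5 times or lost the call. The EA2 fit that keeps only in vitro library 2 has a single culture library, whose spread is assumed to be like that of the in vivo libraries.

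Promoters were searched for the core of the antioxidant response element, TGACNNNGC on either strand, in RefSeq windows of 300 bases (250 before to 50 after each annotated start, GRCm38.p6). Of the 39 genes, 34 matched the promoter table. Hmox1, Gclc, Gsr, Gsta4 and Abcc1 did not. The core lay in a window of 12 of the 34 genes (35.29%), against 13.99% of all 27025 genes with a window. The stricter letters TGACTCAGC, which are one form of the core, lay in the windows of Prdx1 and Me1 (5.88% of 34) and of 0.50% of all genes. The 12 genes were Nfe2l2, Gclm, Txnrd1, Srxn1, Prdx1, Sod1, G6pdx, Pgd, Me1, Gsta3, Gstm5 and Mgst1. Of these, Txnrd1, Pgd, Me1 and Mgst1 also have windows at other annotated starts that lack the core. In Pgd the window without the core is the one further upstream, and the match lies inside the gene, past an internal start. A match is a run of letters and not a shown binding site. Stretches around the match are printed for Nfe2l2 itself, for the genes with the strict form, and for the genes whose RNA changed by a log2 of at least 1 in a line, 5′ to 3′ along the gene with the match in capitals.
Nfe2l2: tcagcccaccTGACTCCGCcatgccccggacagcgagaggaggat
Prdx1: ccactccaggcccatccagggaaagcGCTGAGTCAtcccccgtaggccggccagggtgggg
Me1: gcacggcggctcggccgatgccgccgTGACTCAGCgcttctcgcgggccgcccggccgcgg
Txnrd1: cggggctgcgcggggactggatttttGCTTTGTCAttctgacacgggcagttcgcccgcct
G6pdx: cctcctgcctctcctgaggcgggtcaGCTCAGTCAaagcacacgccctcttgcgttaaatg
Pgd: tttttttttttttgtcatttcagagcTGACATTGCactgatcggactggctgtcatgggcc
Gsta3: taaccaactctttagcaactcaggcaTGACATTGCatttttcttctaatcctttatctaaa
Mgst1: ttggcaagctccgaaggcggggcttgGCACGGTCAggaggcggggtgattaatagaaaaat

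The match of Nfe2l2 lay within chr2:75704869-75704913 (minus strand), that of Prdx1 within chr4:116685440-116685500 (plus strand), that of Me1 within chr9:86695886-86695946 (minus strand) and that of Txnrd1 within chr10:82859088-82859148 (plus strand). That of G6pdx lay within chrX:74428903-74428963 (minus strand), that of Pgd within chr4:149166045-149166105 (minus strand), that of Gsta3 within chr1:21240438-21240498 (plus strand) and that of Mgst1 within chr6:138140445-138140505 (plus strand). In Prdx1, Txnrd1, G6pdx and Mgst1 the element is read on the opposite strand, so the capitals show its reverse complement. The first base of the match was 240 bases before the annotated start in Nfe2l2, 133 before it in Prdx1, 6 before it in Me1 and 4 bases past it in Pgd.

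In EA1, 27 of the 37 genes tested (73.0%) changed, 17 of them higher (45.9%) and 10 lower in vivo. The background was high, since 71.5% of all 11212 genes tested in EA1 were called, 30.9% higher and 40.7% lower. The median change of the 37 genes was 0.23, against -0.09 for all genes. In EA2, 20 of 36 genes tested (55.6%) changed, 10 higher and 10 lower (27.8% each), against 57.3% of all 11074 genes (32.9% higher, 24.4% lower). The median of the 36 was 0.02, against 0.18 for all genes. Changes of at least 1 on the log2 scale were called for 13 genes in EA1 (35.1% of the 37) and 14 in EA2 (38.9% of the 36), against 19.6% and 35.0% of all genes. Among the 13, Gpx2, Gpx3 and Gsta3 reached 1 FPKM only in vivo, so they could be called only as higher. Among the 14, Gsta2 reached it only in vitro and could be called only as lower. The shares of all genes were not divided in this way. The in vivo and in vitro libraries did not overlap for 20 of 37 genes in EA1, where 57.8% of all genes did not, and for 14 of 36 in EA2, where 50.8% did not. Nqo1 and Gsta2 in EA1 and Gpx2, Gpx3 and Gsta3 in EA2 had too low a level to be tested. With EA2 in vitro library 2 alone, 7 genes were called in EA2 (5 higher, 2 lower), and the share of all genes called was 29.9% (14.9% higher, 15.0% lower).

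**Figure D1:**
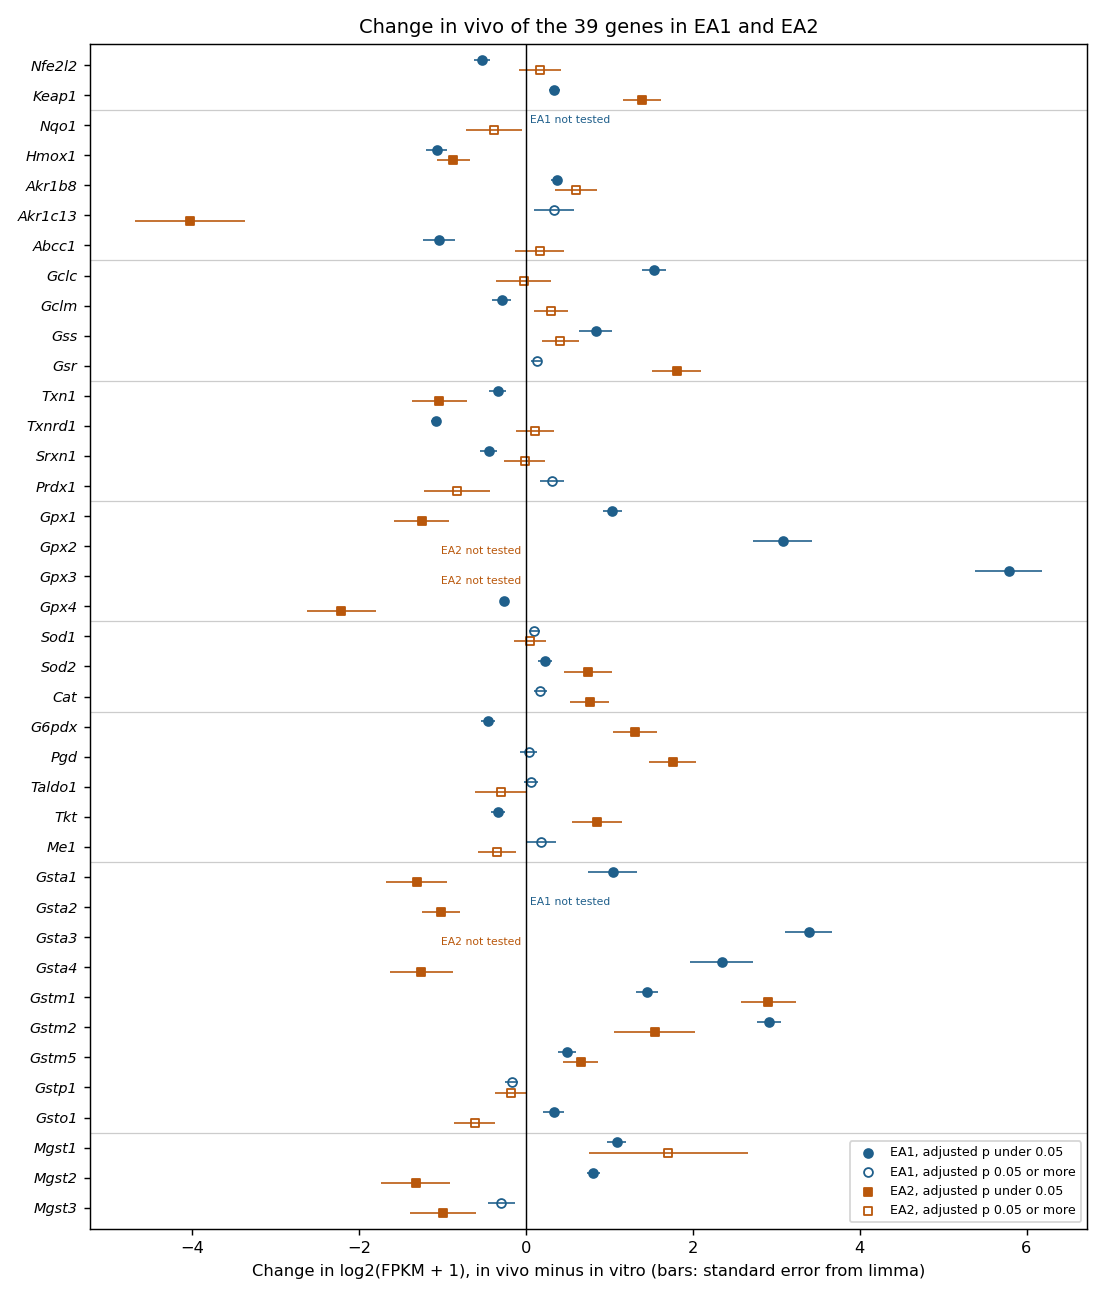
Change of each gene in EA1 and EA2, in vivo minus in vitro in log2(FPKM + 1), with bars of 1 standard error. Filled symbols are calls at an adjusted p under 0.05. Gstm1 and Keap1 lie above 0 in both lines, Hmox1 below 0 in both, and Gsta4 at 2.35 in EA1 and -1.25 in EA2.

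Among the 34 genes tested in both lines, Gstm1, Gstm2, Gstm5, Keap1 and Sod2 were higher in vivo in both, and Gpx4, Hmox1 and Txn1 were lower in both. Another 4 genes, Gpx1, Gsta1, Gsta4 and Mgst2, were higher in EA1 and lower in EA2, and G6pdx and Tkt were lower in EA1 and higher in EA2. Over the 10334 genes tested in both lines these patterns held 13.6% (higher in both), 12.9% (lower in both), 4.18% (higher in EA1 and lower in EA2) and 10.0% (lower in EA1 and higher in EA2).

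The control genes of the pathway moved in opposite directions in EA1. Nfe2l2, which encodes NRF2, stood in EA1 libraries 1 to 5 at 105, 116, 124, 113 and 116 FPKM in vitro and at 76.3, 88.4, 87.7, 61.8 and 86.98 FPKM in vivo. Every in vivo library was below every in vitro library (log2 change -0.52, SE 0.10, adjusted p = 0.000568). In EA2 libraries Nfe2l2 was at 60.8, 105 and 43.96 FPKM in vitro and at 72.3, 71.6, 67.8, 78.4 and 79.2 FPKM in vivo. The in vivo values lay inside the spread of the 3 in vitro libraries (log2 change 0.17, SE 0.26, adjusted p = 0.583). Without in vitro library 2 the EA2 change was 0.50 (adjusted p = 0.0174), and with library 2 alone it was -0.50 (adjusted p = 0.055), so its sign turned on which culture libraries were used. Keap1, the sensor and inhibitor of NRF2, was in EA1 at 21.4, 20.3, 17.9, 19.1 and 21.3 FPKM in vitro and at 24.6, 27.3, 27.1, 25.3 and 23.7 FPKM in vivo. The groups did not overlap and the rise was small (log2 change 0.34, SE 0.07, adjusted p = 0.000698). In EA2 Keap1 was at 7.57, 12.7 and 7.13 FPKM in vitro and at 24.96, 29.9, 26.2, 18.6 and 25.8 FPKM in vivo. This rise was again without overlap (log2 change 1.39, SE 0.23, adjusted p = 0.000602) and was 0.92 (adjusted p = 0.0302) with in vitro library 2 alone. The rise of Keap1 was larger in EA2, with a difference of the changes of 1.05 (SE 0.21, adjusted p = 0.000377), or 0.58 (adjusted p = 0.0332) with library 2 alone.

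**Figure D2:**
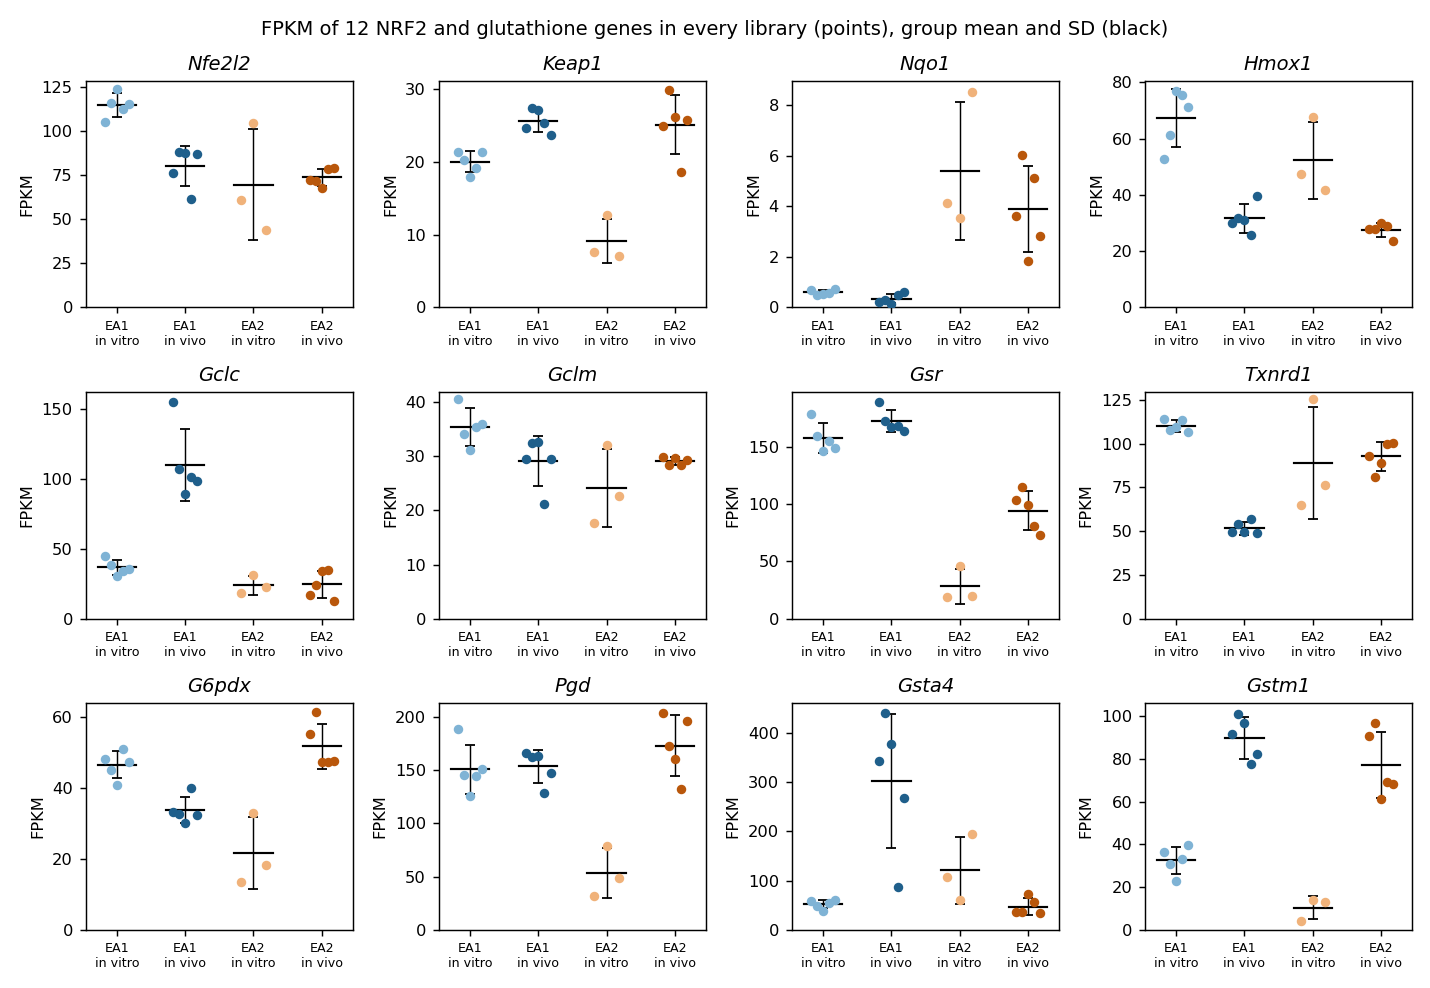
FPKM of 12 genes in every library of the 4 groups, 1 panel a gene with its own linear axis from 0. Points are libraries and bars are the mean ± SD. Hmox1 is lower in vivo in both lines without overlap, whereas Gclc and Gsta4 separate the EA1 groups upward.

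Among the enzymes of quinone, heme and aldehyde detoxification, the fall of Hmox1 was shared by the lines. Hmox1 encodes heme oxygenase 1, which opens heme to biliverdin, iron and carbon monoxide. In EA1 it was at 52.6, 61.2, 76.9, 75.4 and 71.1 FPKM in vitro and at 29.9, 31.7, 31.01, 25.9 and 39.7 FPKM in vivo. The in vivo mean was 0.469 of the in vitro mean, with no overlap (log2 change -1.07, SE 0.13, adjusted p = 1.99e-05). In EA2 it was at 47.4, 67.6 and 41.8 FPKM in vitro and at 27.8, 27.9, 30.1, 28.9 and 23.6 FPKM in vivo. The fold was 0.529, again with no overlap (log2 change -0.87, SE 0.20, adjusted p = 0.00392), and the change with in vitro library 2 alone was -1.26 (adjusted p = 0.00501). After a length correction (the trend of each library with transcript length taken out by loess), chosen after seeing the data, the EA2 change of Hmox1 was -0.41 (adjusted p = 0.156). The difference between the lines was 0.20 (SE 0.22, adjusted p = 0.433). Nqo1, the NAD(P)H quinone reductase often used as a readout of NRF2, was low in EA1, at 0.676, 0.505, 0.527, 0.552 and 0.736 FPKM in vitro and at 0.234, 0.312, 0.147, 0.473 and 0.599 FPKM in vivo, and was not tested there. In EA2 it was at 4.12, 3.55 and 8.53 FPKM in vitro and at 3.63, 6.04, 1.83, 5.12 and 2.81 FPKM in vivo. The EA2 groups overlapped, and no difference was called (log2 change -0.38, SE 0.33, adjusted p = 0.342).

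Akr1b8 and Akr1c13 encode aldo-keto reductases, which reduce reactive aldehydes and ketones. Akr1b8 was higher in EA1 in vivo, at 54.6 ± 3.68 FPKM in vitro and 70.95 ± 5.68 FPKM in vivo (log2 change 0.37, SE 0.07, adjusted p = 0.000455), although with the length trend removed the change was 0.06 (adjusted p = 0.526). In EA2 its means were 33.9 ± 14.2 FPKM in vitro and 49.9 ± 6.73 FPKM in vivo (log2 change 0.61, SE 0.25, adjusted p = 0.0585). That value depended on the setting, at 0.92 (adjusted p = 0.00133) without in vitro library 2, 1.18 (adjusted p = 0.00988) with the length trend removed, 0.65 (adjusted p = 0.024) with quantile normalization and -0.02 (adjusted p = 0.96) with library 2 alone. Akr1c13 fell in EA2, where it stood at 57.5, 13.8 and 97.7 FPKM in vitro and at 0.594, 0.678, 3.99, 6.01 and 0.581 FPKM in vivo. Of the 3 culture libraries, library 2 was the lowest for this gene by far, and no in vivo library reached it (log2 change -4.02, SE 0.66, adjusted p = 0.000612). Against library 2 alone the change was -2.44 (adjusted p = 0.0697). In EA1 its means were 51.6 ± 6.26 FPKM in vitro and 68.8 ± 21.8 FPKM in vivo (log2 change 0.34, SE 0.24, adjusted p = 0.229), and without in vivo library 4 the change was 0.59 (adjusted p = 0.000138). Abcc1, a pump that exports glutathione conjugates, fell in EA1, where it stood at 28.5, 29.2, 38.6, 29.04 and 28.3 FPKM in vitro and at 14.5, 11.3, 10.9, 24.4 and 13.8 FPKM in vivo. In vivo library 4 was the highest of its group but below every culture library (log2 change -1.04, SE 0.19, adjusted p = 0.000472). In EA2 its means were 34.2 ± 17.95 FPKM in vitro and 36.1 ± 6.88 FPKM in vivo (log2 change 0.17, SE 0.30, adjusted p = 0.646). Without in vitro library 2 the EA2 change was 0.56 (adjusted p = 0.0437), and with library 2 alone it was -0.61 (adjusted p = 0.139).

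In glutathione synthesis, the catalytic and the modifier subunits of glutamate-cysteine ligase did not move together in EA1. This ligase joins glutamate to cysteine in the first and limiting step. Its catalytic subunit Gclc stood in EA1 at 45.01, 38.6, 30.8, 34.1 and 35.6 FPKM in vitro and at 155, 107, 89.1, 101 and 98.3 FPKM in vivo. All in vivo libraries were above all culture libraries, with a fold of 2.99 between the means (log2 change 1.54, SE 0.14, adjusted p = 3.43e-06). In EA2 Gclc was at 18.1, 31.1 and 22.4 FPKM in vitro and at 16.8, 23.9, 33.8, 34.9 and 12.9 FPKM in vivo. The groups overlapped and no difference was called (log2 change -0.03, SE 0.33, adjusted p = 0.953). The modifier subunit Gclm was in EA1 at 40.7, 34.1, 31.2, 35.4 and 35.9 FPKM in vitro and at 29.5, 32.5, 32.6, 21.3 and 29.6 FPKM in vivo. The groups overlapped and the fall was small (log2 change -0.29, SE 0.11, adjusted p = 0.042). It was no longer called without any 1 of in vitro libraries 1, 2, 4 or 5 or in vivo libraries 1 or 5. The adjusted p was then 0.06 to 0.0958. The call was also lost with no filter, a replicate block, quantile normalization and median-of-ratios scaling (adjusted p 0.0578 to 0.127). With the length trend removed the EA1 change of Gclm was -0.11 (adjusted p = 0.463). In EA2 Gclm was at 17.7, 32.03 and 22.6 FPKM in vitro and at 29.8, 28.4, 29.7, 28.5 and 29.4 FPKM in vivo. The in vivo libraries were close together, inside the range of the culture libraries (log2 change 0.30, SE 0.20, adjusted p = 0.219), and without in vitro library 2 the change was 0.52 (adjusted p = 0.00797).

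Gss, glutathione synthetase, which adds glycine in the last step, rose in EA1 from 37.2 ± 2.67 FPKM in vitro to 69.9 ± 19.8 FPKM in vivo (log2 change 0.84, SE 0.19, adjusted p = 0.00251). In vivo library 4 was at 37.5 FPKM, among the culture libraries. In EA2 the means of Gss were 19.5 ± 2.59 FPKM in vitro and 26.8 ± 6.63 FPKM in vivo (log2 change 0.42, SE 0.22, adjusted p = 0.123). Gsr, glutathione reductase, which returns oxidised glutathione to its reduced form with NADPH, was called in EA2 and not in EA1. In EA2 it stood at 19.2, 45.8 and 19.6 FPKM in vitro and at 104, 115, 99.4, 80.6 and 73.5 FPKM in vivo. Every in vivo library was above every culture library, with a fold of 3.35 between the means (log2 change 1.81, SE 0.29, adjusted p = 0.000586), and the rise was 1.01 (adjusted p = 0.0259) against in vitro library 2 alone. In EA1 the means of Gsr were 158 ± 12.8 FPKM in vitro and 173 ± 9.76 FPKM in vivo (log2 change 0.13, SE 0.06, adjusted p = 0.0871), although without in vitro library 1 the change was 0.18 (adjusted p = 0.0135).

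The thioredoxin genes were lower in EA1 in vivo for 3 of 4 members, and no member of this group was called higher in either line. Of all genes tested, 40.7% were lower in EA1, and 30.9% in EA1 and 32.9% in EA2 were higher. Thioredoxin reduces protein disulfides and peroxiredoxins, and is itself reduced by thioredoxin reductase. Txnrd1, the cytosolic thioredoxin reductase, was in EA1 at 114, 108, 109, 113 and 107 FPKM in vitro and at 49.4, 53.9, 49.2, 57.1 and 48.8 FPKM in vivo. The fall had the smallest standard error of the group, with no overlap and a fold of 0.469 (log2 change -1.08, SE 0.05, adjusted p = 5.05e-08). In EA2 its means were 89.02 ± 32.1 FPKM in vitro and 92.7 ± 8.22 FPKM in vivo (log2 change 0.11, SE 0.23, adjusted p = 0.698), and without in vitro library 2 the change was 0.38 (adjusted p = 0.037). Txn1, thioredoxin itself, was among the most abundant of the 39 genes. Its EA2 libraries were at 1525, 664 and 2059 FPKM in vitro and at 756, 576, 611, 638 and 549.9 FPKM in vivo. Culture libraries 1 and 3 were far above the others while library 2 lay inside the in vivo range (log2 change -1.04, SE 0.33, adjusted p = 0.0195). The change was -0.91 (adjusted p = 0.0842) without library 1, -0.69 (adjusted p = 0.0954) without library 3 and -0.09 (adjusted p = 0.751) with library 2 alone. In EA1 the fall of Txn1 was from 441 ± 75.6 FPKM in vitro to 346 ± 17.99 FPKM in vivo (log2 change -0.34, SE 0.10, adjusted p = 0.0125).

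Srxn1, sulfiredoxin, which repairs over-oxidised peroxiredoxins, fell in EA1 from 17.7 ± 2.53 FPKM in vitro to 12.7 ± 1.56 FPKM in vivo (log2 change -0.45, SE 0.10, adjusted p = 0.00249) and stood at 11.95 ± 3.20 FPKM in vitro and 11.8 ± 3.00 FPKM in vivo in EA2 (log2 change -0.01, SE 0.25, adjusted p = 0.966). Prdx1, an abundant peroxide-reducing peroxiredoxin and a gene with the strict motif printed above, was called in neither line. Its EA1 means were 784 ± 102 FPKM in vitro and 984 ± 189 FPKM in vivo (log2 change 0.31, SE 0.15, adjusted p = 0.0781), and without in vivo library 4 the change was 0.45 (adjusted p = 0.0011). The EA2 libraries held it at 1861, 556 and 2381 FPKM in vitro and at 836, 703, 685, 834 and 762 FPKM in vivo. Culture library 2 was the lowest of all 8 libraries and libraries 1 and 3 were the highest (log2 change -0.83, SE 0.40, adjusted p = 0.0964). Without library 2 the EA2 change was -1.47 (adjusted p = 7.83e-05), and with library 2 alone it was 0.45 (adjusted p = 0.097).

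The glutathione peroxidases, which reduce peroxides with glutathione, included the largest rise among the 39 genes, that of Gpx3 in EA1, and a fall of Gpx4 in both lines. Gpx3, the secreted form, was in EA1 at 0.206, 0.190, 0.193, 0.120 and 0.0910 FPKM in vitro and at 98.4, 26.5, 51.9, 168 and 42.8 FPKM in vivo. It went from below 1 FPKM in all culture libraries to at least 26.5 FPKM in all in vivo libraries (log2 change 5.79, SE 0.40, adjusted p = 3.79e-07). In EA2 it was at 0.0552, 0.0282 and 0.121 FPKM in vitro and at 0.251, 0.306, 0.447, 3.24 and 0.193 FPKM in vivo and was not tested. Gpx2, the gastrointestinal and epithelial form, was in EA1 at 0.0245, 0.01, 0.0301, 0.0265 and 0.01 FPKM in vitro and at 11.6, 13.4, 7.32, 1.96 and 9.61 FPKM in vivo. The culture values were at or close to the lowest value of the table, 0.01, so no fold is given (log2 change 3.08, SE 0.36, adjusted p = 1.69e-05). In EA2 Gpx2 was at 0, 0 and 0 FPKM in vitro and at 0.141, 0, 0, 0.0348 and 0 FPKM in vivo and was not tested. Gpx2 and Gpx3 passed the EA1 filter only through their in vivo libraries, so a call as higher was the only one open to them. The summed fibroblast markers of EA1 in vivo libraries 1 to 5 were 895.8, 795.0, 165.0, 2705 and 711.1 FPKM, and the club and ciliated markers 319.2, 315.4, 962.6, 256.2 and 253.4 FPKM. Gpx3 was highest in library 4, the library with the most fibroblast marker RNA, and Gpx2 was lowest there. The part of host cells in these rises was not tested.

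Gpx1, the most widely expressed cytosolic form, rose in EA1 and fell in EA2. In EA1 it stood at 241, 221, 195.4, 188 and 195.3 FPKM in vitro and at 441, 482, 493.1, 322 and 414 FPKM in vivo. Every in vivo library was above every culture library (log2 change 1.04, SE 0.12, adjusted p = 1.3e-05). In EA2 it stood at 1020, 308 and 699 FPKM in vitro and at 240.3, 260.4, 254, 282 and 234 FPKM in vivo. The groups did not overlap in the other direction (log2 change -1.25, SE 0.33, adjusted p = 0.00793), but the fall rested on culture libraries 1 and 3, since against library 2 alone the change was -0.28 (adjusted p = 0.232). With the length trend removed it was -0.52 (adjusted p = 0.0531). Gpx4, which reduces lipid hydroperoxides in membranes and holds back ferroptosis, was lower in vivo in both lines. Its EA2 libraries were at 531, 143 and 646 FPKM in vitro and at 83.6, 76.8, 66.6, 101 and 69.5 FPKM in vivo. No in vivo library reached the lowest culture library (log2 change -2.21, SE 0.42, adjusted p = 0.00133), and the change was -0.86 (adjusted p = 0.0333) against library 2 alone. In EA1 Gpx4 was at 302 ± 9.001 FPKM in vitro and 252 ± 10.4 FPKM in vivo, a small fall with no overlap (log2 change -0.26, SE 0.04, adjusted p = 0.000266). Gpx2 and Gpx4 have pseudogenes or copies at 95% identity or more, so reads may have been shared and their levels are uncertain to that extent.

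Sod1, Sod2 and Cat, which remove superoxide and hydrogen peroxide without glutathione, had no called change as large as a log2 of 1. Sod1, the cytosolic dismutase, was at 391 ± 35.9 FPKM in vitro and 419 ± 17.3 FPKM in vivo in EA1 (log2 change 0.10, SE 0.06, adjusted p = 0.182) and 461 ± 10.9 FPKM in vitro and 481 ± 68.9 FPKM in vivo in EA2 (log2 change 0.05, SE 0.20, adjusted p = 0.843). It has a near-identical pseudogene, Gm8566. Sod2, the mitochondrial dismutase, rose from 14.6 ± 1.85 FPKM in vitro to 17.2 ± 1.12 FPKM in vivo in EA1 (log2 change 0.23, SE 0.09, adjusted p = 0.0303) and from 15.1 ± 9.03 FPKM in vitro to 23.6 ± 2.21 FPKM in vivo in EA2 (log2 change 0.75, SE 0.29, adjusted p = 0.0427). Both calls were close to the threshold. That of EA1 was lost without any 1 of in vitro libraries 3, 4 or 5 or in vivo libraries 1, 2 or 3 (adjusted p 0.052 to 0.0732), and that of EA2 without any 1 of in vitro libraries 1 or 3 or any in vivo library (0.0536 to 0.191). With in vitro library 2 alone the EA2 change of Sod2 was -0.11 (adjusted p = 0.676). Cat, peroxisomal catalase, was at 49.99 ± 3.76 FPKM in vitro and 56.6 ± 5.77 FPKM in vivo in EA1 (log2 change 0.17, SE 0.08, adjusted p = 0.0607). It rose in EA2 from 24.3 ± 4.93 FPKM in vitro to 42.3 ± 9.24 FPKM in vivo without overlap (log2 change 0.77, SE 0.23, adjusted p = 0.0157), but the change was 0.62 (adjusted p = 0.0758) without in vitro library 1 and 0.49 (adjusted p = 0.245) with library 2 alone.

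Genes of NADPH supply were higher in EA2 in vivo for 3 of 5 members and lower in EA1 for 2 of 5. Of all genes tested, 32.9% were higher in EA2 and 40.7% lower in EA1. G6pdx, glucose-6-phosphate dehydrogenase, opens the pentose phosphate pathway and makes its first NADPH. The EA2 libraries held it at 13.4, 32.9 and 18.3 FPKM in vitro and at 55.3, 61.4, 47.3, 47.2 and 47.5 FPKM in vivo. Culture libraries 1 and 3 were the lowest, and all in vivo libraries were above library 2 (log2 change 1.31, SE 0.26, adjusted p = 0.00181). Against library 2 alone the change was 0.63 (adjusted p = 0.0501). In EA1 G6pdx fell from 46.5 ± 3.76 FPKM in vitro to 33.7 ± 3.69 FPKM in vivo without overlap (log2 change -0.45, SE 0.08, adjusted p = 0.000435). Pgd, 6-phosphogluconate dehydrogenase, makes the next NADPH of the pathway. In EA2 it stood at 32.04, 78.96 and 48.7 FPKM in vitro and at 204, 173, 161, 132 and 196 FPKM in vivo. The fold between the means was 3.26 with no overlap (log2 change 1.76, SE 0.28, adjusted p = 0.000535), and the rise was 1.11 (adjusted p = 0.0169) against library 2 alone. In EA1 its means were 151 ± 23.1 FPKM in vitro and 154 ± 15.7 FPKM in vivo (log2 change 0.03, SE 0.11, adjusted p = 0.796).

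Tkt and Taldo1 encode transketolase and transaldolase, which return pentose phosphates to glycolysis. Tkt fell in EA1 from 249.5 ± 18.3 FPKM in vitro to 199 ± 22.5 FPKM in vivo without overlap (log2 change -0.33, SE 0.08, adjusted p = 0.00362) and rose in EA2 from 105 ± 55.3 FPKM in vitro to 176 ± 31.2 FPKM in vivo (log2 change 0.85, SE 0.30, adjusted p = 0.0309). The EA2 call was lost without any 1 of in vitro libraries 1 or 3 or in vivo libraries 1, 2 or 3 (adjusted p 0.0588 to 0.161), and with library 2 alone the change was 0.05 (adjusted p = 0.884). Taldo1 was called in neither line, at 130.4 ± 6.61 FPKM in vitro and 137 ± 16.1 FPKM in vivo in EA1 (log2 change 0.06, SE 0.08, adjusted p = 0.51) and 50.4 ± 18.4 FPKM in vitro and 40.1 ± 12.3 FPKM in vivo in EA2 (log2 change -0.30, SE 0.30, adjusted p = 0.41). Me1, malic enzyme, makes NADPH from malate and has the strict motif in its promoter window. It too was called in neither line, at 74.97 ± 6.62 FPKM in vitro and 88.3 ± 24.98 FPKM in vivo in EA1 (log2 change 0.19, SE 0.18, adjusted p = 0.366) and 47.8 ± 10.9 FPKM in vitro and 37.5 ± 7.46 FPKM in vivo in EA2 (log2 change -0.34, SE 0.23, adjusted p = 0.218). Without EA1 in vivo library 4 the EA1 changes were 0.35 for Me1 (adjusted p = 0.0225) and 0.14 for Taldo1 (adjusted p = 0.044).

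Cytosolic glutathione S-transferases, which attach glutathione to electrophiles, were the group with the most rises in EA1, where 7 of the 8 tested were higher in vivo and none was called lower. Their median change was 1.25, against -0.09 for all genes, of which 30.9% were higher and 40.7% lower. In EA2 there were 3 higher and 3 lower among 8, with a median of -0.39 against 0.18. Of all genes tested there, 32.9% were higher and 24.4% lower. Gsta4, an alpha class enzyme known to conjugate the lipid peroxidation product 4-hydroxynonenal, was in EA1 at 57.7, 47.7, 39.03, 55.1 and 60.9 FPKM in vitro and at 344, 439.7, 378, 86.5 and 268 FPKM in vivo. In vivo library 4 was the lowest of its group yet above all culture libraries (log2 change 2.35, SE 0.38, adjusted p = 0.000193). Its EA2 libraries were at 107, 60.7 and 194 FPKM in vitro and at 36.4, 35.3, 72.6, 57.2 and 33.8 FPKM in vivo. The groups overlapped (log2 change -1.25, SE 0.37, adjusted p = 0.0149). The change was -1.26 (adjusted p = 0.0527) without in vitro library 1, -0.83 (adjusted p = 0.0797) without library 3 and -0.43 (adjusted p = 0.462) with library 2 alone. Gsta3, an alpha class enzyme abundant in mouse liver and lung, was in EA1 at 0.0378, 0.0193, 0.0450, 0.0586 and 0.0358 FPKM in vitro and at 12.6, 14.2, 11.5, 3.63 and 11.7 FPKM in vivo. All culture libraries were below 0.06 FPKM, and in vivo library 4 was far below the other tumors (log2 change 3.39, SE 0.28, adjusted p = 1.2e-06). Gsta3 too passed the filter only through its in vivo libraries, and whether host cells had a part in its rise was not tested. In EA2 no library of Gsta3 passed 0.266 FPKM, and it was not tested.

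Gsta1 and Gsta2 are alpha class genes whose transcripts are at least 95% identical to each other and to Gm10639 and Gm3776, so the division of reads between them is uncertain. Gsta1 was in EA1 at 2.22, 2.46, 2.52, 3.38 and 4.38 FPKM in vitro and at 11.7, 10.1, 8.12, 2.86 and 5.82 FPKM in vivo. In vivo library 4 lay among the culture libraries and the other tumors were above them (log2 change 1.04, SE 0.29, adjusted p = 0.00804). With the length trend removed the change was 0.54 (adjusted p = 0.0998). In EA2 Gsta1 stood at 5.60, 2.31 and 3.38 FPKM in vitro and at 1.38, 1.38, 1.79, 0.367 and 0 FPKM in vivo. The groups did not overlap (log2 change -1.31, SE 0.37, adjusted p = 0.0109), but the change was -1.04 (adjusted p = 0.0727) without in vitro library 1 and -0.84 (adjusted p = 0.294) with library 2 alone. Gsta2 was in EA2 at 2.35, 1.27 and 1.27 FPKM in vitro and at 0.521, 0.102, 0.447, 0.229 and 0.154 FPKM in vivo. It was lower in every tumor library (log2 change -1.01, SE 0.23, adjusted p = 0.00381), though -0.21 (adjusted p = 0.499) with the length trend removed. Only its culture libraries reached 1 FPKM, so a call as lower was the only one open to it, and it was not tested with library 2 alone. In EA1 Gsta2 was below 1 FPKM in every library and was not tested.

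The mu class genes Gstm1, Gstm2 and Gstm5 were higher in vivo in both lines. Gstm1, a mu class enzyme abundant in mouse liver, was in EA1 at 36.4, 30.7, 23.02, 33.4 and 39.6 FPKM in vitro and at 91.9, 101, 97.1, 77.8 and 82.4 FPKM in vivo. Every tumor library was above every culture library, with a fold of 2.76 (log2 change 1.45, SE 0.13, adjusted p = 2.74e-06). The EA2 libraries held it at 4.25, 14.02 and 12.8 FPKM in vitro and at 90.6, 97.1, 61.4, 69.2 and 68.3 FPKM in vivo. The fold was 7.47, again with no overlap (log2 change 2.91, SE 0.33, adjusted p = 9.68e-05), and the change was 2.36 (adjusted p = 0.00281) against library 2 alone. Gstm2 was in EA1 at 1.198, 1.39, 1.03, 1.09 and 1.11 FPKM in vitro and at 14.7, 17.1, 12.2, 21.8 and 12.2 FPKM in vivo. It rose 13.4-fold between the means, with library 4 the highest (log2 change 2.91, SE 0.14, adjusted p = 4.11e-08). Whether host cells had a part in this rise was not tested. In EA2 Gstm2 stood at 0.472, 1.02 and 2.04 FPKM in vitro and at 7.27, 8.74, 10.4, 2.58 and 1.51 FPKM in vivo. In vivo library 5 lay below culture library 3 (log2 change 1.54, SE 0.49, adjusted p = 0.0192), and the call was lost without in vitro library 1 (1.29, adjusted p = 0.0996) or library 2 (1.52, adjusted p = 0.0516) and with library 2 alone (1.59, adjusted p = 0.169). Gstm1 has a near-identical pseudogene, Gstm2-ps1.

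Gstm5 rose from 9.23 ± 1.22 FPKM in vitro to 13.4 ± 1.82 FPKM in vivo in EA1 (log2 change 0.49, SE 0.11, adjusted p = 0.00177) and from 9.18 ± 0.778 FPKM in vitro to 15.3 ± 3.50 FPKM in vivo in EA2 (log2 change 0.66, SE 0.21, adjusted p = 0.0227), without overlap in either line. With the length trend removed the EA1 change was 0.10 (adjusted p = 0.325), and the EA2 call was lost without any 1 of in vitro libraries 1 or 3 or in vivo libraries 2 or 3 (adjusted p 0.052 to 0.0778) and with library 2 alone (0.58, adjusted p = 0.188). Gstp1, the pi class enzyme, was called in neither line, at 186 ± 12.1 FPKM in vitro and 166 ± 18.4 FPKM in vivo in EA1 (log2 change -0.17, SE 0.08, adjusted p = 0.077) and 129 ± 17.1 FPKM in vitro and 114 ± 15.3 FPKM in vivo in EA2 (log2 change -0.18, SE 0.19, adjusted p = 0.443). With the length trend removed the change of Gstp1 was -0.69 (adjusted p = 7.2e-05) in EA1 and 0.65 (adjusted p = 0.0366) in EA2, and without EA1 in vivo library 4 the EA1 change was -0.22 (adjusted p = 0.0165). Its near-identical copy Gstp2 makes these levels uncertain. Gsto1, the omega class enzyme, was at 282 ± 21.1 FPKM in vitro and 359.9 ± 69.6 FPKM in vivo in EA1 (log2 change 0.33, SE 0.13, adjusted p = 0.0376), a call lost without any 1 of 8 libraries (in vitro 1 to 4 and in vivo 1, 2, 3 and 5, adjusted p 0.0506 to 0.0879). In EA2 it was at 305 ± 68.96 FPKM in vitro and 201 ± 42.9 FPKM in vivo (log2 change -0.61, SE 0.25, adjusted p = 0.0542).

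The microsomal glutathione transferases are membrane enzymes that conjugate or reduce lipid peroxides. Mgst1 was in EA1 at 66.1, 63.4, 52.8, 54.5 and 65.8 FPKM in vitro and at 153, 114, 126, 108 and 152 FPKM in vivo. All tumor libraries were above all culture libraries (log2 change 1.09, SE 0.11, adjusted p = 6.93e-06). In EA2 Mgst1 stood at 35.2, 1.69 and 109.7 FPKM in vitro and at 69.2, 61.8, 28.8, 118 and 123 FPKM in vivo. The 3 culture libraries differed among themselves more than for any other of the genes whose folds between them were computed, with folds over library 2 of 20.8 in library 1 and 64.9 in library 3 (log2 change 1.71, SE 0.95, adjusted p = 0.146). Against library 2 alone the change was 4.74 (adjusted p = 0.00536). Mgst2, which can also make leukotriene C4, rose in EA1 from 69.5 ± 5.29 FPKM in vitro to 123 ± 10.9 FPKM in vivo without overlap (log2 change 0.81, SE 0.08, adjusted p = 3.03e-06). In EA2 it stood at 350.2, 86.6 and 304 FPKM in vitro and at 66.8, 105, 100.2, 90.00 and 63.95 FPKM in vivo. Library 2 lay inside the tumor range (log2 change -1.32, SE 0.41, adjusted p = 0.0178), and the change was -0.95 (adjusted p = 0.107) without in vitro library 1, -1.06 (adjusted p = 0.0847) without library 3 and -0.05 (adjusted p = 0.906) with library 2 alone. Mgst3 was at 230.3 ± 24.03 FPKM in vitro and 192 ± 47.2 FPKM in vivo in EA1 (log2 change -0.29, SE 0.16, adjusted p = 0.134) and 176 ± 108 FPKM in vitro and 78.98 ± 23.2 FPKM in vivo in EA2 (log2 change -0.99, SE 0.39, adjusted p = 0.0498), an EA2 call lost without any 1 of in vitro libraries 1 or 3 or in vivo libraries 2, 4 or 5 (adjusted p 0.0742 to 0.251) and with library 2 alone (0.01, adjusted p = 0.988).

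The changes of 25 of the 39 genes differed between the lines in a limma fit of all 18 libraries, where 63.3% of 11930 genes did so. The EA2 change was above the EA1 change for 11 of them and below it for 14, against 36.3% and 27.1% of all genes. With EA2 in vitro library 2 alone as the EA2 culture group, 18 genes differed, 7 of them above, against 40.4% and 21.4% of all genes. Mgst1 was then called, at 3.65 (adjusted p = 0.000228). With median-of-ratios scaling, which moved the median difference of all genes from 0.18 to -0.13, the genes divided into 8 above and 19 below, and all genes into 3273 above and 4231 below in place of 4327 and 3230. For genes near 0 in EA2, such as Gpx2, Gpx3 and Gsta3, the contrast is in effect the EA1 change alone. Among the genes tested in both lines, the largest differences were those of Akr1c13 at -4.35 (SE 0.72, adjusted p = 6.88e-05), Gsta4 at -3.60 (SE 0.57, adjusted p = 4.7e-05), Gsta1 at -2.35 (SE 0.49, adjusted p = 0.000503), Gpx1 at -2.28 (SE 0.33, adjusted p = 2.48e-05) and Mgst2 at -2.13 (SE 0.41, adjusted p = 0.000244) on the side of EA1. On the side of EA2 they were G6pdx at 1.77 (SE 0.25, adjusted p = 2.05e-05), Pgd at 1.73 (SE 0.28, adjusted p = 6.41e-05), Gsr at 1.68 (SE 0.28, adjusted p = 7.71e-05) and Gstm1 at 1.45 (SE 0.35, adjusted p = 0.00167). Gclc differed by -1.56 (SE 0.36, adjusted p = 0.00107) and Txnrd1 by 1.19 (SE 0.20, adjusted p = 9.3e-05). Each of these 11 differences kept its call at every setting in which it was tested, but most were smaller with library 2 alone. They were then -2.78 (adjusted p = 0.0114) for Akr1c13, -1.32 (adjusted p = 0.000289) for Gpx1, -0.86 (adjusted p = 0.0141) for Mgst2, 1.08 (adjusted p = 0.000392) for G6pdx, 1.07 (adjusted p = 0.0033) for Pgd, 0.88 (adjusted p = 0.00415) for Gsr, 0.91 (adjusted p = 0.0233) for Gstm1 and 0.64 (adjusted p = 0.00201) for Txnrd1. Gclc, at -1.97 (adjusted p = 0.00367), was then further from 0 than Gpx1 and Mgst2. The difference of Gpx4 went from -1.95 (SE 0.41, adjusted p = 0.000555) to -0.60 (adjusted p = 0.016). Calls of the difference for Abcc1, Cat, Gclm, Gstm2, Nfe2l2, Prdx1 and Tkt were lost with library 2 alone, and Gsta2 was not tested there. For Nfe2l2 the difference was 0.69 (SE 0.25, adjusted p = 0.0239), but 0.02 (adjusted p = 0.932) with library 2 alone.

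The tumor libraries of EA1 were not alike. In vivo library 4 was the lowest of the 5 for 23 of the 37 tested genes and the highest for 10. The 10 were Akr1b8, Abcc1, Txnrd1, Srxn1, Gpx3, Gpx4, Cat, G6pdx, Gstm2 and Gstp1. In the other 4 libraries the count of lowest values was 2 to 5 and that of highest values 3 to 12. Library 4 also had the highest fibroblast marker sum (2705 FPKM, against 165.0 to 895.8) and the lowest macrophage marker sum (148.6 FPKM, against 251.7 to 353.3), and whether either has a part in its values was not tested. Without it, 32 genes were called in EA1, 21 higher and 11 lower, in place of 27, while the share of all genes called went from 71.5% to 77.1% (33.5% higher, 43.6% lower). The calls of Abcc1, Gclc, Gpx1, Gpx2, Gpx3, Gsta3, Gsta4, Gstm1, Gstm2, Hmox1, Mgst1 and Txnrd1 held without it and at every other setting in which they were tested.

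**Figure D3:**
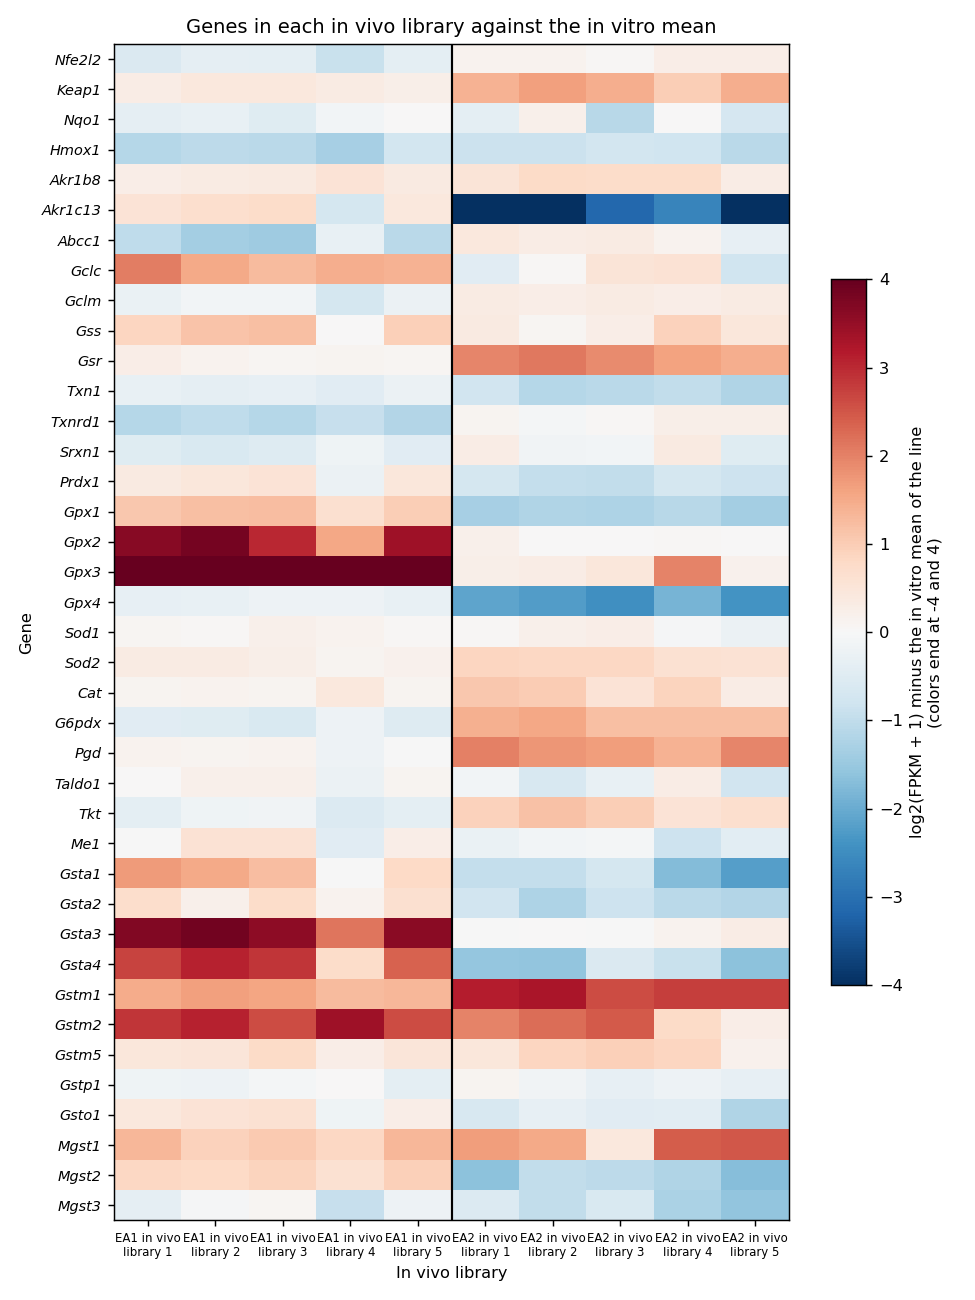
Heat map of log2(FPKM + 1) of each gene (rows) in each in vivo library (columns), minus the in vitro mean of the same line, with colors ending at -4 and 4. In EA1 library 4 the rises of Gss, Gsta1, Gsta3 and Gsta4 are paler than in the other tumor libraries, and in EA2 the rises of Gsr, Pgd and Gstm1 are seen in all 5.

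In EA2 the differences among the 3 culture libraries followed transcript length. Of the 18 genes with longest annotated coding transcripts of up to 1500 bases, 9 were higher in both libraries 1 and 3 than in library 2 and 4 were lower in both, with median folds of 1.80 and 1.74. Of the 18 genes with longer transcripts, 2 were higher in both and 15 lower in both, with median folds of 0.581 and 0.617. Among the 18 shorter transcripts, 9 were called lower in vivo in EA2 and 3 higher, the 3 being Gstm1, Gstm2 and Gstm5. Among the 18 longer, 7 were called higher and 1, Hmox1, lower. Of all genes tested in EA2, whatever their length, 32.9% were higher and 24.4% lower. Prdx1, annotated at 2294 bases, was an exception, at 3.35 and 4.28 times library 2. With the length trend removed, 12 genes were called higher and 3 lower in EA2 in place of 10 and 10, and 53.6% of all genes were called, 30.7% higher and 22.9% lower. Gpx4, Gsr, Gstm1, Keap1 and Pgd were the 5 genes of EA2 whose calls held at every setting in which they were tested, library 2 alone included.

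**Figure D4:**
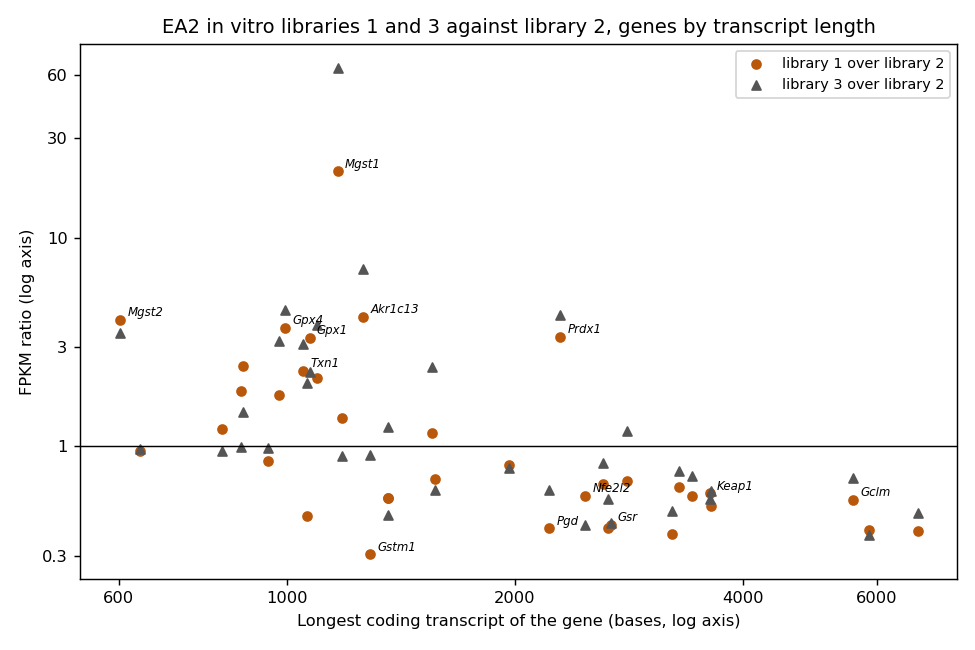
FPKM ratio of EA2 in vitro libraries 1 and 3 over library 2 for each gene, against the length of its longest annotated coding transcript in bases, both on log axes. Of the 18 longer than 1500 bases, 15 lie below 1 in both libraries, and Mgst1 is highest at 20.8 and 64.9.

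Calls were also counted by promoter match. Of the 12 genes with the element core, 3 were higher and 5 lower in EA1. Of the 20 tested genes whose window lacked it, 12 were higher and 3 lower in EA1. In EA2 the counts were 3 higher and 0 lower of 11 with the core, and 6 higher and 8 lower of 20 without it. Of all genes tested, 30.9% were higher and 40.7% lower in EA1, and 32.9% and 24.4% in EA2. The counts are small and untested, a description only, and the absence of the letters from a window says nothing of elements elsewhere.

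Other genes of the system were counted from lists. Of all genes tested, 30.9% were higher and 40.7% lower in EA1, and 32.9% and 24.4% in EA2. The EA2 calls of these lists are given without the fit of culture library 2 alone, so whether they held there is not shown. Whether host cells had a part in the rises of these lists was not tested. Of 10 further regulators of NRF2 (its ligase, MAF partners, relatives and competitors), 3 rose and 3 fell in EA1 and 4 rose and 2 fell in EA2. In EA1 the small MAF partner Mafg fell from 33.6 to 15.3 FPKM between the means (log2 change -1.08, adjusted p = 4.87e-07). In EA2 Gsk3b, a kinase that marks NRF2 for destruction without KEAP1, rose from 11.9 to 31.1 FPKM (1.38, adjusted p = 0.000855). Further target genes numbered 20 in the EA1 test, where 12 rose and 4 fell (median 0.54). Among the 12, Cbr3 and Aldh1a1 passed the filter only through their in vivo libraries. Cbr3, a carbonyl reductase below 1 FPKM in every culture library and so open to a call as higher only, rose from 0.425 to 6.56 FPKM (2.35, adjusted p = 1.91e-06), and Osgin1, an oxidative stress-induced growth inhibitor, fell from 103.6 to 21.2 FPKM (-2.23, adjusted p = 6.69e-09). In EA2, 4 of 18 rose and 2 fell. Aldh3a1, an aldehyde dehydrogenase, rose there from 5.15 to 70.7 FPKM (3.56, adjusted p = 2.08e-05), and Ephx1, microsomal epoxide hydrolase, from 1.89 to 11.7 FPKM (2.09, adjusted p = 0.000103).

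Genes of cystine uptake, cysteine synthesis and glutathione breakdown held large falls in both lines. In EA1, 5 rose and 5 fell of 11, and in EA2, 3 rose and 5 fell of 9. Among the rises, Ggt7 and Anpep in EA1 and Cbs and Oplah in EA2 reached 1 FPKM only in vivo. They could be called only as higher. Cth, which makes cysteine from cystathionine, fell from 48.3 to 0.892 FPKM in EA1 (-4.48, adjusted p = 2.53e-06) and from 86.8 to 4.56 FPKM in EA2 (-4.04, adjusted p = 7.57e-06). Chac1, which cleaves glutathione, fell from 53.4 to 2.16 FPKM in EA1 (-3.99, adjusted p = 6.19e-07) and from 24.7 to 3.70 FPKM in EA2 (-2.48, adjusted p = 5.79e-05). Slc7a11, the cystine carrier and itself a target of NRF2, fell from 18.9 to 0.598 FPKM in EA1 (-3.51, adjusted p = 2.09e-06), where only its culture libraries reached 1 FPKM. Cth, Chac1 and Slc7a11 are also targets of ATF4, the factor of the amino acid stress response. Oplah, which returns oxoproline to glutamate, rose in EA2 from 0.774 to 13.7 FPKM (2.95, adjusted p = 8.04e-05), where only its in vivo libraries reached 1 FPKM.

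Of 21 other peroxiredoxin, thioredoxin and glutaredoxin genes tested, 10 rose and 6 fell in EA1, and 4 rose and 9 fell in EA2. Txnip, which binds and inhibits thioredoxin, rose in EA1 from 39.6 to 205.7 FPKM (2.49, adjusted p = 3.8e-05), and Sod3, the extracellular dismutase, from 0.133 to 22.1 FPKM (4.11, adjusted p = 1.14e-06). In both lines only the in vivo libraries of Sod3 reached 1 FPKM, so no call but higher was open to it. Glrx3, a glutaredoxin, fell in EA2 from 117.5 to 32.4 FPKM (-1.77, adjusted p = 0.00147). Of 8 other glutathione transferases and related genes (among them Alox5ap and Ptges) tested in EA1, 6 rose and 1 fell. Gstt1, a theta class enzyme, rose from 0.800 to 37.1 FPKM (4.31, adjusted p = 1.01e-07). Of the 6 rises, 3 (Gstt1, Gstt3 and Alox5ap) were of genes below 1 FPKM in every culture library, which could be called only as higher. In EA2, 1 of 5 rose and 2 fell, among them Gsto2, from 5.16 to 1.00 FPKM (-1.60, adjusted p = 0.000391).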

How the data were processed

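RNA from 18 libraries of EA1 and EA2 cells was analysed. The authors trimmed stranded polyA reads, aligned them to mm10 with STAR and estimated FPKM with Cufflinks. The submitters' notes name Cufflinks 2.0.2 and the methods of the study a later release. The deposited FPKM tables, 1 per line, held 24341 and 24347 entries, of which 6 (status words) and 27 (dates as names) were left out. No source used here names the annotation version.

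A gene was tested where 5 or more EA1 libraries, or 3 or more EA2 libraries, reached 1 FPKM. Values were fitted as log2(FPKM + 1) with limma 3.58.1 (trend, two-sided) in R 4.3.3. The difference between the lines was the interaction over all 18 libraries, for genes tested in either line or both. The fits were tested on simulated data. FPKM carry no counts, so the depth behind each value is unknown.

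The 39 genes and the other lists were chosen with earlier results of these data known. All 39 are accounted for. Every library is given for Nfe2l2, Keap1, Nqo1, Hmox1, Gclc, Gclm and each gene called with a log2 change of at least 1, in that line, and some others singled out after their values were seen. Up to 3 genes of each other list with the largest called changes are named. Promoters of genes called in both lines that lacked the motif are not printed. The alternatives were a filter of 5 FPKM or none, a pseudocount of 0.1, quantile normalization, median-of-ratios scaling, a block on replicate number, robust empirical Bayes, EA2 in vitro library 2 alone, each library left out, and, chosen after seeing the data, removal of the length trend (loess, span 0.3). Promoters come from RefSeq (GRCm38.p6), and transcript lengths and near-identical genes (at least 95% identity over 50% of the transcript) from the GRCm38 reference annotation provided.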

Additional observations from a re-analysis of the deposited data

Results flagged for a closer look

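Single libraries were checked in 107 sets of values, each from 1 gene in a group of 5 libraries. The EA2 culture group of 3 libraries was not checked. The gap between 1 library and the rest was beyond Dixon's 95% value 7 times, where chance gives about 5% of sets. In EA1 in vivo library 4 this held for Abcc1 (24.4 FPKM, the others 10.9 to 14.5), Cat (66.9, the others 53.5 to 55.0), Gclm (21.3, the others 29.5 to 32.6) and Gsta3 (3.63, the others 11.5 to 14.2). Gclc was 154.6 FPKM in EA1 in vivo library 1 (the others 89.1 to 106.7), Abcc1 was 38.6 in EA1 in vitro library 3 (the others 28.3 to 29.2), and Gpx3 was 3.24 in EA2 in vivo library 4 (the others 0.193 to 0.447).

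The change from in vitro to in vivo differed between EA1 and EA2 in the test of the difference itself for 25 genes, given as EA2 change minus EA1 change in log2(FPKM + 1). The EA2 change was the higher for Nfe2l2 (0.69), Keap1 (1.05), Abcc1 (1.21), Gclm (0.59), Gsr (1.68), Txnrd1 (1.19), Cat (0.59), G6pdx (1.77), Pgd (1.73), Tkt (1.18) and Gstm1 (1.45). The EA1 change was the higher for Akr1c13 (-4.35), Gclc (-1.56), Prdx1 (-1.14), Gpx1 (-2.28), Gpx2 (-3.03), Gpx3 (-5.16), Gpx4 (-1.95), Gsta1 (-2.35), Gsta2 (-1.49), Gsta3 (-3.30), Gsta4 (-3.60), Gstm2 (-1.37), Gsto1 (-0.94) and Mgst2 (-2.13).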

How the results depend on the processing

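Of the counts of genes called, those of EA1 and of the difference between the lines stayed within 1.5 times the reported count at every alternative but one. Leaving out each library gave 24 to 32 genes called in EA1 (15 to 21 higher, 9 to 11 lower), 10 to 26 in EA2 (5 to 14 higher, 5 to 12 lower) and 22 to 29 for the difference (8 to 13 above, 12 to 16 below). The EA2 count of 20 was 10 without in vitro library 1. With EA2 in vitro library 2 alone, 7 genes were called in EA2 in place of 20 (5 higher, 2 lower), and 7 in place of 11 had an EA2 change above that of EA1. Genes lower in EA2 numbered 6 with quantile normalization and 3 with the length trend removed, in place of 10, and 6 without in vitro library 3. Median-of-ratios scaling moved the median of all genes from 0.18 to -0.02 in EA2 and from -0.09 to -0.03 in EA1. It gave 29 genes called in EA1 (20 higher, 9 lower), 19 in EA2 (7 higher, 12 lower) and 27 for the difference, and divided all EA2 calls into 3124 higher and 3328 lower in place of 3643 and 2702. The cause of these shifts was not tested.

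Signs turned with a call at one of the settings for Gsto1 (-0.0229) and Taldo1 (-0.24) in EA1 and Gstp1 (0.65) in EA2 with the length trend removed, and for Mgst3 (0.0087) and Sod2 (-0.11) in EA2 with library 2 alone. For the difference they turned for Gstp1 (0.44) and Sod1 (0.88) with quantile normalization, Gstp1 (1.203) with the length trend removed and Prdx1 (0.14) with library 2 alone. The sign of genes called at neither setting also turned, 2 times in EA1, 33 in EA2 and 31 for the difference. Calls held at every setting in which the gene was tested for 21 of 27 in EA1, 5 of 20 in EA2 and 16 of 25 for the difference.

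Samples of a line with the same replicate number did not deviate together (correlations -0.061 to 0.077 in EA1 and -0.131 to 0.007 in EA2). With the number as a replicate block, 27 genes were called in EA1 (18 higher, 9 lower), 19 in EA2 (10 higher, 9 lower) and 23 for the difference (9 above, 14 below). FPKM without counts limit what low levels can show.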
